A study of Mus musculus with 16 samples.

Results

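Integrins and laminins were followed over 12 days of cardiac differentiation in 34 genes, the 24 integrin chains and 10 laminin chains that single-gene probe sets named by symbol, of 18193 genes named that way. Membership was set by symbol (integrin α and β chains, laminin α, β and γ chains), and the family was picked with earlier results of these data known. RNA was measured on Affymetrix mouse expression arrays in 16 cultures of P19CL6, a subline of the mouse P19 embryonal carcinoma line that forms beating cardiac muscle cells in dimethyl sulfoxide (DMSO). In the growth group (3 cultures) the cells had no DMSO and were passaged every 48 h, which keeps them undifferentiated. In the other groups they were plated in medium with 1% DMSO, renewed every 48 h, and collected at day 4 (3 cultures), day 6 (2), day 8 (3), day 10 (3) or day 12 (2). All groups come from 1 cell line, and the study describes the samples of a group as independent. No culture was kept as long without DMSO and without passage, so the agent and the time since plating cannot be told apart.

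Laminins are secreted trimers of an α, a β and a γ chain that assemble into the sheet of the basement membrane. Integrins are receptors made of an α and a β chain that bind laminins, fibronectin, collagens and other matrix proteins outside the cell and, through talin, kindlins and the ILK and parvin complex, hold the actin cytoskeleton inside it. The α1 laminin chain is typical of the earliest embryonic basement membranes and the α2 chain of muscle, and integrins that contain the β1 chain are the main matrix receptors of the heart.

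Of the integrin β chains, 3 changed here without all moving one way. The 250 bases before the start of the genes Itgb1 (chr8:128685404-128685653, plus strand), Itgb8 (chr12:119238277-119238526, minus strand) and Itgb5 (chr16:33829415-33829664, plus strand) are shown from RefSeq, build GRCm38.p6, read 5′ to 3′ on the gene's strand. Capitals mark matches, on either strand, to the GC box GGGCGG and the E-box CACCTG.
Itgb1: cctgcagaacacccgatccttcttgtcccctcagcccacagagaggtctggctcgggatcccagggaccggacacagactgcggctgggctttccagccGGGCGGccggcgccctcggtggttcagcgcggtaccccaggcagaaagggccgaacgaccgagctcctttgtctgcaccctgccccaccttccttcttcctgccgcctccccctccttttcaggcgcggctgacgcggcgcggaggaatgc
Itgb8: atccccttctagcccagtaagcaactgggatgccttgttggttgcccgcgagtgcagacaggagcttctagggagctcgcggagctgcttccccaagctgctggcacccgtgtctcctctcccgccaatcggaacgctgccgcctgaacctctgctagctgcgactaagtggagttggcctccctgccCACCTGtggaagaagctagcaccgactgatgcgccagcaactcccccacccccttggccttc
Itgb5: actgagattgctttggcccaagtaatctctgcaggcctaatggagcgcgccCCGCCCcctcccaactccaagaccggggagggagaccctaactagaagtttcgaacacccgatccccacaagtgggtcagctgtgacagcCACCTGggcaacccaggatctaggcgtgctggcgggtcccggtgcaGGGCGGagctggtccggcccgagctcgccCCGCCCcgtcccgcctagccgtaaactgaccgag
The window of Itgb1 held 1 GC box, that of Itgb8 1 E-box, and that of Itgb5 3 GC boxes and 1 E-box, with no overlap between matches. Their GC content was 68.0%, 62.4% and 65.2%, against a median of 52.4% over all windows. Of the 32851 windows of this length in the RefSeq table, 32.7% held the GC box and 17.2% the E-box. The table held 25 windows of 22 of the 34 members, of which 9 had the GC box and 7 the E-box. The TATA box TATAAA was in 0 of the 25 (12.4% of all windows) and the GATA sequence AGATAA in 1 (9.99% of all windows). These matches describe the letters in the windows only.

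Values are the deposited log2 signals, which are normalized and background-corrected, and a log2 value of 4 or less was treated as dim, not well above background. Each array correlated at 0.956 to 0.992 with the others of its group, and between 39.6% and 42.5% of the probe sets were above 4. Day 8 replicate A stood apart: its correlation was 0.990 to 0.992 with the day 6 arrays and 0.956 to 0.967 with its own group. The tested members and the gene lists are therefore also given without it at day 8. Day 10 replicate A correlated at 0.979 with day 12 replicate A and at 0.975 to 0.976 with its own group. Markers were checked against the labels of the first and last group. Pou5f1, a pluripotency factor, was at 14.12 to 14.50 in growth, and Tnnt2, cardiac troponin T, was at 13.97 and 14.16 at day 12, against 2.95 to 3.03 in growth. At day 8 Tnnt2 was at 6.03 in replicate A, against 8.90 and 10.77 in replicates B and C, and Myl7, an atrial myosin light chain, at 3.27 against 10.27 and 11.23.

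Of the 34 members, 17 were above 4 on at least 2 arrays and were tested, among 10802 genes in all. The other 17 stayed between 1.99 and 3.51 on all 16 arrays, and for them the arrays give only an upper bound. Most of these are chains of blood cells and stratified epithelium. They were Itga2b and Itgb3, the fibrinogen receptor of platelets (2.61 to 2.94 and 2.32 to 2.36), and the leukocyte chains Itgal, Itgam and Itgax with their partner Itgb2 (2.10 to 2.61). Itgae and Itgb7, which pair on intraepithelial lymphocytes, lay at 2.40 to 3.51. Itgb4, the partner of Itga6 in hemidesmosomes (1.99 to 2.04), and Itgb6, an epithelial partner of αv (2.40 to 2.50), were dim as well. So were the hemidesmosomal laminin chains Lama3 and Lamb3 (2.43 to 3.03) and the γ chain Lamc3 (2.52 to 2.75). The remaining dim members were the collagen receptor chains Itga2 and Itga10 (2.09 to 2.71), Itga4, a receptor for fibronectin and VCAM1 (2.78 to 3.10), and Itga7. Itga7 is the laminin receptor chain of mature muscle, and its signal was 2.46 to 2.50 on every array, day 12 included. None of the other probe sets of these 17 genes passed the same minimum.

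A difference was called when its adjusted p over all tested genes was under 0.05 (limma, Benjamini-Hochberg) and its size was at least 1 on the log2 scale. At day 4, 7 of the 17 tested members had risen over growth and 0 had fallen, where 13.3% of all tested genes had risen and 13.6% had fallen. At day 6, 7 had risen and 2 had fallen (14.0% and 12.9% of all genes). At day 8 the counts were 9 and 2 (16% and 15%), and at day 10 they were 9 and 3 (18.5% and 19.5%). At day 12, 12 had risen and 2 had fallen, against 22.5% and 19.3% of all genes. The median difference of the 17 from growth was 0.82 at day 4, 1.00 at day 6, 1.30 at day 8, 1.36 at day 10 and 1.63 at day 12, and that of all tested genes was between -0.02 and 0.01. A member that was dim in growth could enter the test only by being brighter in DMSO medium, which holds for Itga8, Itgb8 and Lama2, so these counts and medians describe the tested members and not the 34. A moderated F test over the 5 differences from growth together called 16 of the 17, all except Itga9, against 60.9% of all genes. It tests departure from growth on any day, not change among the DMSO days. In bulk RNA, fewer cells of a type and less RNA per cell cannot be told apart.

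**Figure D1:**
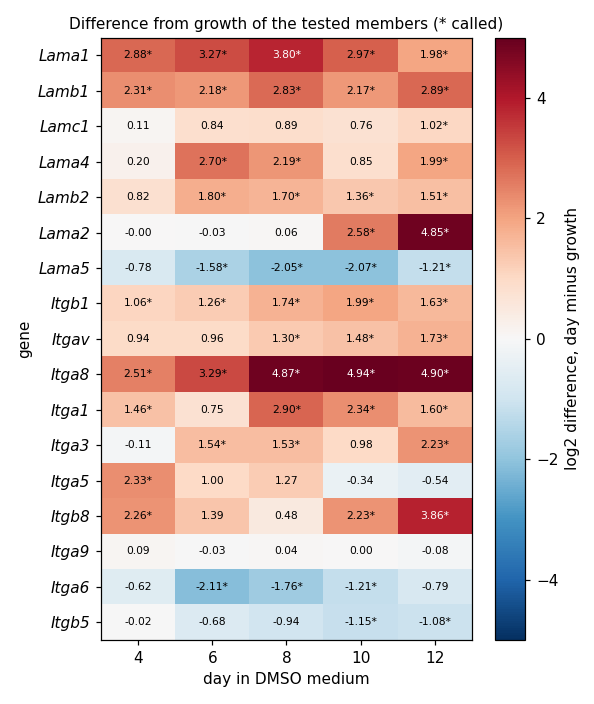
Log2 difference from growth of the 17 tested members (rows) on each of the 5 DMSO days (columns), with an asterisk where it was called. Red is higher on the DMSO day and blue lower. Itga8 and Lama2 hold the largest values, 4.94 and 4.85, and Lama5, Itga6 and Itgb5 the called lower ones.

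Among the laminin ligands, Lama1 and Lamb1 rose on every DMSO day. Lama1 (probe set 1418153_at), the α1 chain, was at 4.34, 4.18 and 4.32 in growth, 6.08, 7.82 and 7.56 at day 4, 7.53 and 7.57 at day 6, 7.50, 8.54 and 8.21 at day 8 (replicates A, C and B), 6.67, 7.57 and 7.51 at day 10, and 6.01 and 6.51 at day 12. All 13 arrays in DMSO medium were above all growth arrays. Its mean was 7.16 ± 0.94 at day 4 and 8.08 ± 0.53 at day 8, its highest group, against 4.28 ± 0.08 in growth (SD, n = 3 each), differences of 2.88 ± 0.40 and 3.80 ± 0.40 (SE, adjusted p = 5.27e-05 and 3.77e-06), or 7.34-fold and 13.9-fold. The day 8 difference was 4.09 without replicate A. At day 12 Lama1 was 3.95-fold over growth (adjusted p = 0.00158), and its day 12 values lay below all day 10 values, a difference of -0.99 ± 0.44 that was not called (adjusted p = 0.28).

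Lamb1 (probe set 1424114_s_at), the β1 chain found in most embryonic laminins, was at 7.37, 8.12 and 7.84 in growth, 9.78, 10.25 and 10.23 at day 4, 9.85 and 10.06 at day 6, 10.21, 11.03 and 10.57 at day 8 (A, C, B), 10.26, 9.91 and 9.67 at day 10, and 10.33 and 11.01 at day 12. Growth and DMSO arrays did not overlap. At day 4 Lamb1 was already 4.96-fold over growth (2.31 ± 0.27, adjusted p = 1.08e-05), and it was 7.43-fold over growth at day 12 (2.89 ± 0.30, adjusted p = 2.28e-06). At day 8 the difference was 2.83, or 3.03 without replicate A. All 3 of its passing probe sets rose on every day, by 1.62 to 3.07.

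Lamc1 (probe set 1423885_at), the γ1 chain that completes these trimers, moved much less. It lay at 7.78, 7.99 and 8.20 in growth, 8.16, 7.91 and 8.24 at day 4, 8.65 and 9.02 at day 6, 8.58, 8.97 and 9.07 at day 8 (A, C, B), 8.22, 9.20 and 8.83 at day 10, and 8.72 and 9.30 at day 12. From day 6 on every array was above the growth arrays. The difference was called at day 12 only (1.02 ± 0.28, adjusted p = 0.00559), and at day 8 it was 0.89, or 1.03 and called without day 8 replicate A (adjusted p = 0.00581). The day 12 call was lost without growth replicate A (0.92) or day 12 replicate C (0.73, adjusted p = 0.0891), and its second passing probe set, at 3.47 to 5.77, differed from growth by -0.58 to 0.58 with no call.

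Lama4 (probe set 1424807_at), the α4 chain of vascular and mesenchymal laminins, was at 4.42, 5.12 and 4.43 in growth, 5.90, 3.47 and 5.19 at day 4, 7.16 and 7.54 at day 6, 7.01, 6.92 and 6.60 at day 8 (A, C, B), 5.28, 5.63 and 5.62 at day 10, and 6.70 and 6.60 at day 12. It had no call at day 4, where its arrays spread on both sides of growth. Day 6 was its highest group, at 7.35 ± 0.27 (SD, n = 2) against 4.66 ± 0.40 in growth (n = 3), a 6.48-fold rise (2.70 ± 0.49, adjusted p = 0.000608). It was called at day 8 (2.19, or 2.10 without day 8 replicate A) and day 12 (1.99) but not at day 10 (0.85 ± 0.44, adjusted p = 0.109), when all arrays were below those of days 6 and 8.

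Lamb2 (probe set 1416513_at), the β2 chain of glomerular and synaptic basement membranes, was at 5.04, 5.60 and 6.66 in growth, the widest growth spread among the laminins. It was at 6.75, 6.10 and 6.91 at day 4, 7.52 and 7.61 at day 6, 7.43, 7.29 and 7.69 at day 8 (A, C, B), 7.11, 6.75 and 7.52 at day 10, and 7.09 and 7.46 at day 12. Day 4 overlapped growth and the later days did not. It rose at day 6 (1.80 ± 0.39, 3.48-fold, adjusted p = 0.00199), day 8 (1.70, or 1.73 without day 8 replicate A), day 10 (1.36) and day 12 (1.51). Without growth replicate A the day 10 difference was 1.00 (adjusted p = 0.0202), just under the minimum size.

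Lama2 (probe set 1426285_at), the muscle laminin chain, came last. It was dim in growth (2.52, 2.41, 2.51), at day 4 (2.51, 2.43, 2.51), at day 6 (2.54, 2.37) and at day 8 (2.53, 2.53, 2.56), then at 6.35, 5.38 and 3.44 at day 10 and at 7.66 and 7.01 at day 12. At day 10, replicates A and B were above 4 and replicate C was not. Where all arrays of a group were dim, a fold is given as a lower bound, the brighter group's mean over the log2 value of 4. Lama2 was at least 2.08-fold over growth at day 10 (fitted difference 2.58 ± 0.49, adjusted p = 0.000455) and at least 10.1-fold at day 12 (4.85 ± 0.55, adjusted p = 5.35e-06). The day 10 difference was 3.39 without day 10 replicate C and 1.93 without replicate A, called in both cases.

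Lama5 (probe set 1427009_at), the α5 chain of epithelial and pluripotent cell laminins, was the laminin that fell. Its values were 8.09, 8.24 and 8.26 in growth, 7.22, 6.90 and 8.14 at day 4, 6.15 and 7.09 at day 6, 6.19, 5.48 and 6.77 at day 8 (A, C, B), 6.38, 5.15 and 6.84 at day 10, and 7.06 and 6.92 at day 12. From day 6 all arrays were below all growth arrays, and the day 10 replicates lay as far apart as 5.15 and 6.84. It was 4.21-fold lower than growth at day 10 (-2.07 ± 0.44, adjusted p = 0.00103) and 4.14-fold lower at day 8 (-2.05 ± 0.44, adjusted p = 0.00145, and -2.07 without day 8 replicate A). The smaller differences at day 6 (-1.58) and day 12 (-1.21, adjusted p = 0.0462) were less secure. The day 6 call was lost without day 6 replicate B (-1.11, adjusted p = 0.194), and the day 12 call without any single array of growth or day 12 or without replicate A of day 4, day 8 or day 10 (-1.14 to -1.28, adjusted p = 0.053 to 0.163).

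**Figure D2:**
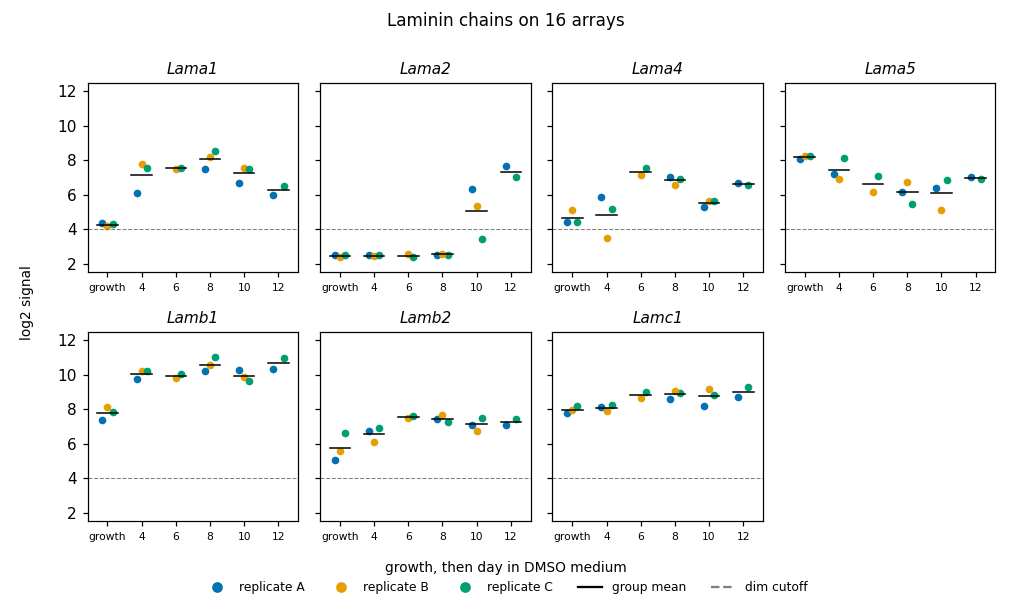
Log2 signal of the 7 tested laminin chains on each of 16 arrays, in growth and by day in DMSO medium, with points coloured by replicate letter, a bar at each group mean and a dashed line at the dim cutoff of 4. Lama1 and Lamb1 are above growth from day 4, Lama4 and Lamb2 from day 6, Lama2 from day 10, and Lama5 lies below growth from day 6.

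Among the receptors, Itgb1 rose on all 5 days and Itgb5 fell late. Itgb1 (probe set 1426918_at), the β1 chain shared by the laminin, collagen and fibronectin receptors, was at 9.22, 9.35 and 9.70 in growth, 10.68, 10.42 and 10.36 at day 4, 10.52 and 10.84 at day 6, 10.75, 11.46 and 11.27 at day 8 (A, C, B), 11.08, 11.64 and 11.51 at day 10, and 10.97 and 11.14 at day 12. All DMSO arrays were above all growth arrays. Its mean was 11.41 ± 0.29 at day 10, the highest group, against 9.42 ± 0.25 in growth (SD, n = 3 each), a 3.97-fold rise (1.99 ± 0.21, adjusted p = 3.17e-06). The rise at day 4 was 2.09-fold (1.06 ± 0.21, adjusted p = 0.00101), and it was 0.96 without growth replicate A and 0.97 without day 4 replicate A, just under the minimum size. At day 8 it was 1.74, or 1.94 without day 8 replicate A. A second probe set rose by 1.04 to 2.16 with calls on all 5 days, and another by 0.72 to 1.58 with calls from day 8.

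Itgb5 (probe set 1417534_at), which with αv binds vitronectin, was at 9.96, 9.54 and 9.99 in growth, 9.95, 9.53 and 9.94 at day 4, 9.03 and 9.26 at day 6, 8.72, 8.81 and 9.13 at day 8 (A, C, B), 8.58, 8.60 and 8.86 at day 10, and 8.79 and 8.70 at day 12. Day 4 lay on top of growth, and from day 6 on all arrays were lower than all growth arrays. Its calls were at day 10 (-1.15 ± 0.18, 2.22-fold lower, adjusted p = 8.15e-05) and day 12 (-1.08 ± 0.20, 2.12-fold lower, adjusted p = 0.000343). At day 8 the difference of -0.94 had an adjusted p of 0.00057 but was under the minimum size (-0.86 without day 8 replicate A), and a second of its 4 passing probe sets was called there (-1.09). Vtn, vitronectin itself, was dim on all arrays (2.16 to 2.22).

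Itgb8 (probe set 1436223_at), which with αv binds latent TGFβ, was high both early and late. It was dim in growth (3.84, 3.70, 3.61), then at 4.65, 6.55 and 6.71 at day 4, 5.48 and 4.73 at day 6, 4.40, 3.94 and 4.23 at day 8 (A, C, B), 7.06, 5.83 and 4.93 at day 10, and 7.73 and 7.42 at day 12. Day 4 and day 6 overlapped, and day 8 lay below both of them, with replicate C dim. It was at least 3.92-fold over growth at day 4 (2.26 ± 0.53, adjusted p = 0.00293), at least 3.84-fold at day 10 (2.23 ± 0.53, adjusted p = 0.00233) and at least 11.9-fold at day 12 (3.86 ± 0.59, adjusted p = 7.35e-05). At day 6 (1.39, adjusted p = 0.0717) and day 8 (0.48, adjusted p = 0.476, or 0.37 without day 8 replicate A) it was not called. Day 4 replicate A was low here, as in Itga8 and Lama1, and without it the day 4 difference was 2.92.

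Itgav (probe set 1452784_at), the αv chain that pairs with both Itgb5 and Itgb8, was at 8.12, 8.38 and 8.22 in growth, 9.14, 9.13 and 9.28 at day 4, 9.28 and 9.12 at day 6, 9.23, 9.75 and 9.64 at day 8 (A, C, B), 10.18, 9.54 and 9.42 at day 10, and 9.96 and 9.98 at day 12. No DMSO array overlapped growth. At day 8 it was 1.30 over growth, or 1.45 without day 8 replicate A. Its rise at day 12 was 3.32-fold (1.73 ± 0.22, adjusted p = 1.42e-05). At days 4 and 6 the differences of 0.94 and 0.96 had adjusted p of 0.0013 and 0.00292 and were under the minimum size. Its 2 other passing probe sets, at 3.43 to 6.14, differed from growth by 0.10 to 1.19 with no call.

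Of the α chains that pair with β1, Itga8 had the largest rise. Itga8 (probe set 1454966_at), a receptor for nephronectin, was dim in growth (2.63, 2.51, 2.54), then at 2.83, 6.29 and 6.06 at day 4 (A, B, C), 5.80 and 5.89 at day 6, 6.16, 8.51 and 7.62 at day 8 (A, C, B), 7.14, 8.26 and 7.09 at day 10, and 7.62 and 7.30 at day 12. Only day 4 replicate A was dim among the DMSO arrays. Itga8 was at least 3.60-fold over growth at day 6 (fitted difference 3.29 ± 0.84, adjusted p = 0.00623), at least 10.8-fold at day 8 (4.87 ± 0.75, adjusted p = 0.000113), at least 11.3-fold at day 10 (4.94 ± 0.75, adjusted p = 7.08e-05) and at least 11-fold at day 12 (4.90 ± 0.84, adjusted p = 0.000195). At day 4, with 2 of 3 arrays above 4, the difference was 2.51 ± 0.75 (adjusted p = 0.0135), 3.62 without replicate A, and not called without replicate B (1.89, adjusted p = 0.068) or C (2.01, adjusted p = 0.0637). The day 8 difference was 5.51 without replicate A. Its second passing probe set, at 2.55 to 5.44, differed from growth by 0.10 to 1.39 with no call.

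Npnt, nephronectin, the ligand of α8β1 in the developing kidney, was dim in growth and at day 4 (3.47 and 3.52). It was at 3.98 ± 0.53 at day 6 (n = 2), 3.52, 8.38 and 7.77 at day 8 (A, C, B), 7.98 ± 0.22 at day 10 (n = 3) and 8.83 ± 0.32 at day 12 (SD, n = 2). At day 8 its difference from growth was 3.08 ± 0.85 (adjusted p = 0.00788), or 4.60 ± 0.24 without replicate A. It had risen at least 28.5-fold over growth at day 12 (5.36 ± 0.95, adjusted p = 0.000264). The group mean of the used Itga8 probe set was above 4 from day 4, and that of Npnt from day 8, after 3.98 at day 6. The second Itga8 probe set was at 2.65 to 2.70 at days 4 and 6 and at 5.44 in day 8 replicate C. It does not show this order.

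Itga1 (probe set 1455251_at), a collagen IV and laminin receptor chain, was at 4.24, 4.45 and 4.45 in growth, 5.52, 6.26 and 5.74 at day 4, 4.85 and 5.42 at day 6, 5.62, 8.65 and 7.57 at day 8 (A, C, B), 6.51, 7.39 and 6.26 at day 10, and 5.84 and 6.11 at day 12. All DMSO arrays were above growth, and at day 8 replicates B and C were higher than every array of any other group while replicate A was close to day 6. The rise at day 8 was 7.48-fold (2.90 ± 0.55, adjusted p = 0.000607), 3.73 without replicate A (adjusted p = 2.98e-06) and 2.22 without replicate C. At day 10 the rise was 2.34 ± 0.55 (5.07-fold, adjusted p = 0.00227). The smaller rises at day 4 (1.46, adjusted p = 0.042) and day 12 (1.60, adjusted p = 0.0372) depended on single arrays. The day 4 call was lost without any single array of growth, day 4, day 6 or day 12, without day 8 replicate B or without day 10 replicate A (1.25 to 1.62, adjusted p = 0.0502 to 0.129), and the day 12 call without any single array of growth or day 12 (1.47 to 1.73, adjusted p = 0.0642 to 0.155).

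Itga3 (probe set 1455158_at), a receptor chain for laminins with the α3 or α5 chain, was at 4.49, 4.82 and 4.81 in growth, 5.31, 3.97 and 4.50 at day 4, 6.26 and 6.24 at day 6, 6.20, 5.72 and 6.80 at day 8 (A, C, B), 5.78, 5.39 and 5.91 at day 10, and 6.33 and 7.55 at day 12. Day 4 surrounded growth, and the later arrays were all above it. It rose at day 6 (1.54 ± 0.41, 2.91-fold, adjusted p = 0.00755), day 8 (1.53, or 1.55 without day 8 replicate A) and day 12 (2.23 ± 0.41, 4.69-fold, adjusted p = 0.00032). The day 10 difference of 0.98 was under the minimum size (adjusted p = 0.0312). At day 12 it was 2.84 without replicate A and 1.62 without replicate C, called in both cases. Its second passing probe set, tested on its own, was called at day 6 (1.34, adjusted p = 0.0412) and day 12 (1.77, adjusted p = 0.00628). That probe set was not called at day 8 (1.07, adjusted p = 0.0549).

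Itga5 (probe set 1423267_s_at), the α chain of the classical fibronectin receptor, was highest early. It was at 6.72, 5.59 and 6.64 in growth, 7.65, 8.75 and 9.55 at day 4, 6.94 and 7.71 at day 6, 7.16, 7.44 and 8.16 at day 8 (A, C, B), 4.25, 6.59 and 7.08 at day 10, and 4.90 and 6.65 at day 12. At day 8 its difference of 1.27 was not called, nor was 1.48 without day 8 replicate A. It rose 5.04-fold at day 4 (2.33 ± 0.69, adjusted p = 0.0129), the only called day, and the arrays of day 10 and day 12 overlapped growth (differences of -0.34 and -0.54). The day 4 call was lost without growth replicate B (1.97, adjusted p = 0.0562) or day 4 replicate C (1.88, adjusted p = 0.061). A second passing probe set was also called at day 4 (1.97) and on no other day.

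Fn1, fibronectin, the ligand of α5β1, had its highest mean on the same day. It was at 13.34 ± 0.13 at day 4 against 7.52 ± 0.07 in growth (SD, n = 3 each), a 56.4-fold rise (5.82 ± 0.31, adjusted p = 6.15e-09). It fell by 1.26 ± 0.34 from day 4 to day 6 (adjusted p = 0.0364), and was at 11.29 ± 0.24 at day 12 (n = 2), still 13.6-fold over growth (adjusted p = 7.73e-07).

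Itga6 (probe set 1422444_at), a laminin receptor chain abundant in pluripotent and epithelial cells, was the α chain that fell. It was at 10.02, 10.51 and 10.08 in growth, 9.31, 9.72 and 9.73 at day 4, 7.91 and 8.27 at day 6, 8.00, 8.40 and 8.91 at day 8 (A, C, B), 7.92, 9.77 and 9.28 at day 10, and 9.01 and 9.81 at day 12. All DMSO arrays were below growth. It was 4.32-fold lower than growth at day 6 (-2.11 ± 0.44, adjusted p = 0.00159), 3.40-fold lower at day 8 (-1.76 ± 0.39, adjusted p = 0.00189, and -1.54 without day 8 replicate A) and 2.32-fold lower at day 10 (-1.21 ± 0.39, adjusted p = 0.016). At day 12 the difference was -0.79 (adjusted p = 0.132). The day 10 call was lost without day 10 replicate A (-0.68, adjusted p = 0.075) or growth replicate B (-1.06, adjusted p = 0.0595). Its known β partners are Itgb1, which rose, and Itgb4, which was dim on every array.

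**Figure D3:**
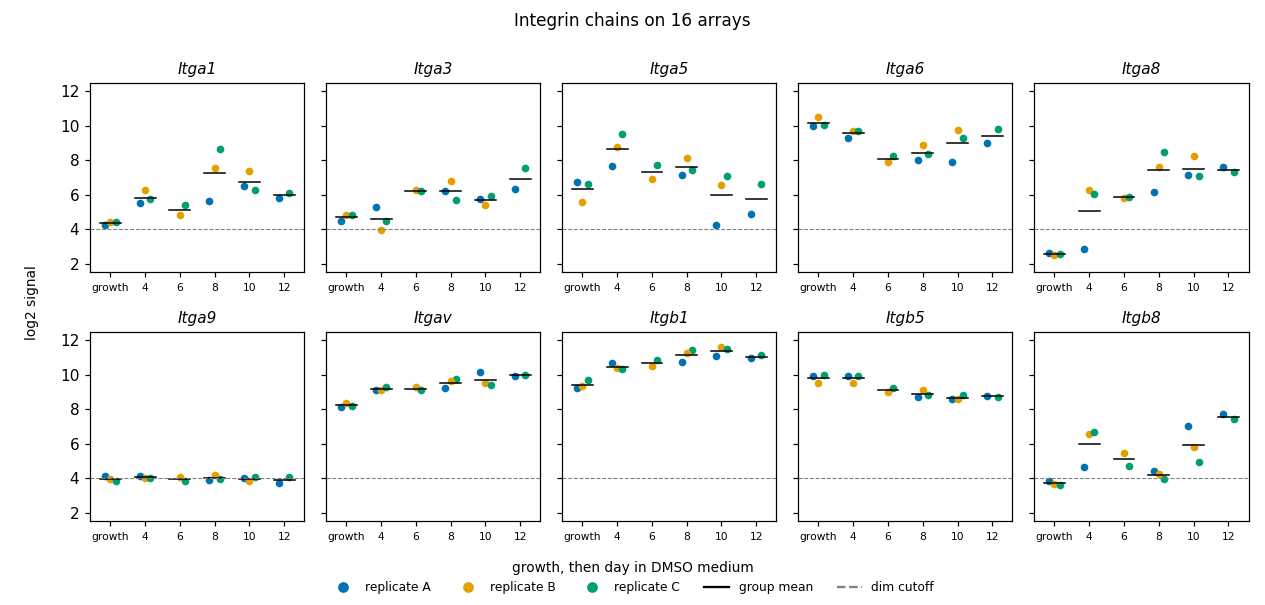
Log2 signal of the 10 tested integrin chains on each of 16 arrays, in growth and by day in DMSO medium, with points coloured by replicate letter, a bar at each group mean and a dashed line at the dim cutoff of 4. Itgb1 and Itgav are above growth throughout, Itga5 is highest at day 4, Itgb8 is high at day 4 and again at day 12, and Itga6 is lowest at day 6.

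Itga9, a receptor chain for tenascin and other matrix ligands, shows how the choice of probe set decides a result. The probe set with the highest mean, 1420860_at, was at 3.75 to 4.21 on all arrays and differed from growth by at most 0.09 (adjusted p = 0.669). A second, 1460285_at, was at 2.38, 2.26 and 2.29 in growth, 5.0, 4.61 and 5.58 at day 4, 2.39 and 2.53 at day 6, 2.39, 2.29 and 2.28 at day 8 (A, C, B), 3.29, 2.85 and 2.37 at day 10, and 4.34 and 4.29 at day 12. Only its day 4 and day 12 arrays were above 4. With each passing probe set tested on its own, it was at least 2.09-fold over growth at day 4 (fitted difference 2.76 ± 0.24, adjusted p = 1.31e-06) and at least 1.24-fold at day 12 (2.01 ± 0.27, adjusted p = 3.09e-05), and fell by 2.60 ± 0.27 from day 4 to day 6 (adjusted p = 5.9e-05). The remaining one, 1450029_s_at, was at 3.15 to 4.17, highest in day 4 replicate A and day 12 replicate C, with no call. For Itga6 the second probe set, 1422445_at, fell at day 4 as well (-1.09 ± 0.26, adjusted p = 0.00392) and had its other calls over growth on the same days as the first.

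**Figure D4:**
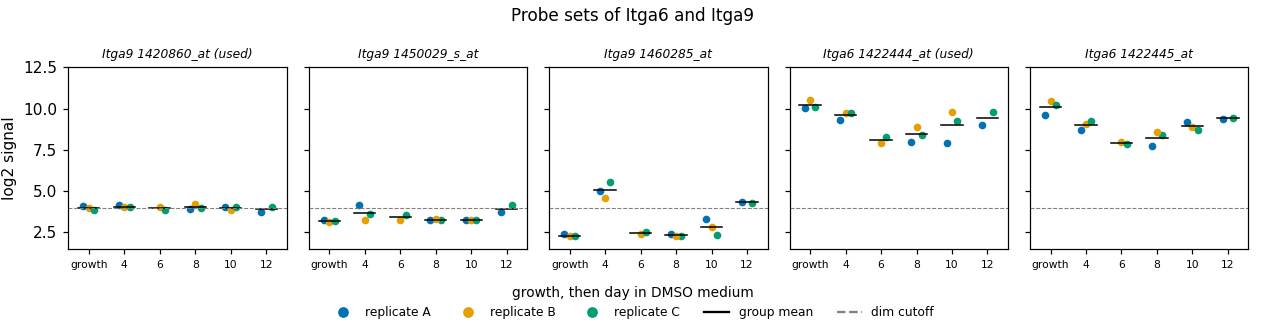
Log2 signal on each of 16 arrays for the passing probe sets of Itga9 (left 3 panels) and Itga6 (right 2 panels), with "used" marking the probe set with the highest mean. The used probe set of Itga9 stays at the dashed dim cutoff of 4 while 1460285_at is above it at days 4 and 12 only, and both probe sets of Itga6 are lowest at day 6.

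Between successive days few members changed. From day 4 to day 6, Itga3 (1.65 ± 0.41, adjusted p = 0.022) and Lama4 (2.50 ± 0.49, adjusted p = 0.00579) rose and 0 members fell, against 3.52% and 2.61% of all genes. The call of Itga3 was lost without day 4 replicate B or C or either day 6 array (1.34 to 1.67, adjusted p = 0.0644 to 0.149). The second Itga3 probe set was not called over this step (1.24, adjusted p = 0.175). Itga6 had a difference of -1.49 over this step that was not called (adjusted p = 0.0547). It was called in 6 alternatives, without day 8 replicate A (adjusted p = 0.0467), without day 10 replicate A or B and by its second probe set (-1.12, adjusted p = 0.0352). The call of Lama4 was lost without day 6 replicate C (2.31, adjusted p = 0.0865), and its size was 1.80 without day 4 replicate B. From day 6 to day 8 limma called 0 members, with 0.0% of all genes higher and 0.0185% lower, and 2 members and 1237 of all genes had an unadjusted p under 0.05. Without day 8 replicate A, Itga1 rose over this step (2.98 ± 0.40, adjusted p = 0.000547), as did 3.74% of all genes, while 0 members fell (1.93% of all genes).

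From day 8 to day 10, Itgb8 (1.75 ± 0.53, adjusted p = 0.0387) and Lama2 (2.52 ± 0.49, adjusted p = 0.00442) rose and 0 members fell, against 4.62% and 3.19% of all genes. The call of Itgb8 was lost without growth replicate B or C, any day 8 array or day 10 replicate A or B (1.19 to 1.86, adjusted p = 0.0512 to 0.152). Lama2 kept its call without any single array, with 1.87 without day 10 replicate A and 3.33 without replicate C. Its call was lost with values under 4 set to 4 (1.25, adjusted p = 0.0512) and in a fit of only the groups compared. Without day 8 replicate A, Lama2 rose (2.51, adjusted p = 0.0156; 3.49% of all genes rose) and Itga1 fell (-1.39, adjusted p = 0.0331; 2.31% of all genes fell). From day 10 to day 12 only Lama2 rose (2.28 ± 0.55, adjusted p = 0.035) and 0 members fell, against 2.88% and 0.185% of all genes. That call was lost without growth replicate B, either day 6 array, day 10 replicate B or either day 12 array (1.95 to 2.60, adjusted p = 0.0516 to 0.16), and the difference was 1.46 without day 10 replicate C and 2.92 without replicate A.

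By group mean, the 17 tested members were highest at different times. Growth was the highest group of 3 (Itga6, Itgb5 and Lama5), day 4 of 2 (Itga5 and Itga9), day 6 of 2 (Lama4 and Lamb2), day 8 of 2 (Itga1 and Lama1), day 10 of 2 (Itga8 and Itgb1) and day 12 of 6 (Itga3, Itgav, Itgb8, Lama2, Lamb1 and Lamc1). Neighbouring groups in these orders often overlapped: Itga8 averaged 7.43, 7.50 and 7.46 at days 8, 10 and 12, and Lamb1 10.60 at day 8 and 10.67 at day 12. The orders are those of the used probe sets. For Itga9 the order means little, since its group means spanned only 0.17 (moderated F test, adjusted p = 0.934). Both other passing probe sets of Lamb1 were highest at day 8 (10.43 and 9.60, against 10.33 and 8.77 at day 12). That of Lamc1 was highest at day 6 (5.30, against 4.42 at day 12), whereas that of Itga3 was also highest at day 12 (5.44). At day 12, 6 integrin α chains, 3 β chains and 7 laminin chains were above 4 on every array, against 5, 2 and 6 in growth, and the additions were Itga8, Itgb8 and Lama2. Every array means 2 arrays at day 12 and 3 in growth. Of all probe sets, 41.5% and 42.5% were above 4 on the day 12 arrays, against 39.6% to 40.5% in growth.

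The genes around these receptors and ligands were read from 3 lists. Of 22 other basement membrane components and non-integrin laminin receptors, all 22 tested, 6 rose and 3 fell at day 4, 8 and 1 at day 6, 8 and 2 at day 8, 13 and 1 at day 10, and 15 and 0 at day 12. Without day 8 replicate A, 10 rose and 1 fell at day 8. The share of all genes in that fit is not given, and the shares that follow are from all 16 arrays. Of all genes, 13.3% rose and 13.6% fell at day 4, 14.0% and 12.9% at day 6, 16% and 15% at day 8, 18.5% and 19.5% at day 10, and 22.5% and 19.3% at day 12. The list's median difference was 0.06 at day 4 and 1.41 at day 12. Nid1, nidogen, which links laminin to collagen IV, was at 9.49 ± 0.18 at day 12 (n = 2) against 4.38 ± 0.49 in growth (SD, n = 3), a 34.7-fold rise (adjusted p = 2.09e-07). Col4a5, a collagen IV chain, rose 37.9-fold by day 12 (5.24 ± 0.49, adjusted p = 9.79e-07), and Smoc2, a secreted basement membrane protein, at least 41.3-fold (adjusted p = 1.97e-06). Dag1, dystroglycan, the main laminin receptor that is not an integrin, rose 2.91-fold at day 10 (1.54 ± 0.22, adjusted p = 3.67e-05) and 2.73-fold at day 12.

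Of 24 other integrin ligands, 20 were named and 19 tested, of which 4 rose and 3 fell at day 4, 4 and 3 at day 6, 10 and 4 at day 8, 10 and 3 at day 10, and 11 and 3 at day 12. The shares of all genes over these days were 13.3% to 22.5% for rises and 12.9% to 19.5% for falls. Without day 8 replicate A, 11 rose and 4 fell at day 8, with no share of all genes given for that fit. Edil3, a ligand of αv integrins, rose at all 5 times, by at least 2.84-fold at day 4 (adjusted p = 0.000148) and at least 30.1-fold at day 12 (adjusted p = 1.79e-07). The fibrillar collagen Col3a1 was dim until day 6 and at 12.16 ± 0.15 at day 12 (n = 2), at least 286-fold over growth (adjusted p = 1.91e-09). Postn, periostin, was highest at day 10 (10.06 ± 0.19, n = 3), at least 66.5-fold over growth, and Col1a2 at least 28.4-fold on that day (adjusted p = 1.69e-06 and 0.000124). Cdh1, the ligand of the dim chain Itgae, fell on all 5 days, as did Icam1 and Madcam1, ligands of leukocyte integrins. Other adhesion ligands of the list went the other way: Vcam1 rose at days 8, 10 and 12, and Icam2 at days 10 and 12.

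Of 30 integrin partners in the cytoplasm, 28 were named and 26 tested, of which 5 rose and 3 fell at day 4, 7 and 3 at day 6, 7 and 3 at day 8, 6 and 1 at day 10, and 9 and 1 at day 12. Of all genes, 13.3% rose and 13.6% fell at day 4, 14.0% and 12.9% at day 6, and 16% and 15% at day 8. The shares were 18.5% and 19.5% at day 10 and 22.5% and 19.3% at day 12. The median difference of the partners was 0.03 at day 4 and 0.42 at day 12. Without day 8 replicate A, 9 rose and 1 fell at day 8, with no share of all genes given for that fit. Parva, α-parvin, which bridges ILK to actin, rose 2.54-fold at day 4 (1.35 ± 0.28, adjusted p = 0.00135) and 11.2-fold at day 12 (3.48 ± 0.31, adjusted p = 7.27e-07). Ilk, its partner, rose 2.06-fold at day 8 (1.04, or 1.30 without day 8 replicate A), 2.28-fold at day 10 and 2.02-fold at day 12 (adjusted p = 0.00146, 0.000399 and 0.00301). Fermt2, the kindlin of heart and mesenchyme, rose 2.14-fold at day 10 and 3.07-fold at day 12 (adjusted p = 7.02e-06 and 6.22e-07). Csrp1, a LIM protein that binds zyxin, first fell 3.58-fold at day 4 (-1.84 ± 0.28, adjusted p = 0.000134). It was called over growth on every later day, 2.90-fold at day 6 (1.54 ± 0.32, adjusted p = 0.00152). The rise was 5.57-fold at day 10 (2.48 ± 0.28) and 5.30-fold at day 12 (2.41 ± 0.32, adjusted p = 2.14e-05). Parvb, β-parvin, rose at day 4 (1.73, adjusted p = 0.00337) and day 12 (1.55, adjusted p = 0.01) and on no day between.

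Markers of several cell types changed over the same days, and their part in the values above was not tested. Marker lists are given as log2 of their summed linear signal, with the lowest and highest array of a group. The 5 cardiomyocyte markers summed to 5.39 to 6.01 in growth, where 4 of the 5 were dim. They were at 5.46 to 7.46 at day 4, where Myl7 was at 6.65 and 7.01 in replicates B and C and 3.80 in replicate A, then at 6.35 to 6.77 at day 6, 6.69 in day 8 replicate A and up to 12.20 in the other day 8 arrays, 15.14 to 15.56 at day 10, and 16.36 to 16.39 at day 12, with all 5 above 4 on at least 1 array of each group from day 8. The 5 smooth muscle markers summed to 14.48 to 14.49 at day 12, against 6.35 to 6.95 in growth, with Myh11 dim throughout. The 5 endothelial markers summed to 4.82 to 5.06 in growth and 8.21 to 9.38 at day 4, where Kdr was the one above 4. They were at 6.14 to 6.2 at day 6, 6.01 to 8.32 at day 8, 8.52 to 8.73 at day 10 and 8.39 to 9.18 at day 12. At day 12 Kdr was at 7.29 and 7.15 and Tek at 7.16 and 8.62. Pecam1 was then at 3.62 and 4.61, Cdh5 at 4.18 and 3.8, and Tie1 was dim.

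Extraembryonic endoderm, a known source of Lama1 and Lamb1 in embryonal carcinoma cultures, was read from 6 markers that summed to 5.50 to 5.84 in growth, 8.27 to 8.56 at day 4, 9.55 to 9.59 at day 6 and 11.47 to 11.79 at day 12. Gata6 was at 8.04 to 8.42 at day 4 and at 11.07 and 11.38 at day 12, and made up most of the sum on both days. Dab2 was at 7.34 and 7.64 at day 6 and 6.73 to 8.38 over days 8 to 12, against 2.79 to 3.63 in growth. Afp was above 4 on 1 array at day 10 and both at day 12, Foxa2 on 1 array at day 8, and Sox7 and Sox17 were dim in every group. The 5 epithelial markers summed to 12.39 to 12.48 in growth, 9.11 to 11.04 at day 4, 13.52 to 13.58 at day 6 and 11.47 to 11.57 at day 12. They did not move together. Epcam and Cdh1 were lower than growth on every DMSO array, whereas Krt8 was at 12.91 to 12.94 at day 6 and 13.10 to 13.23 at day 8, against 7.53 to 8.04 in growth. Krt18 was at 11.38 to 12.00 over days 6 and 8, against 7.69 to 8.31 in growth. The 5 pluripotent markers summed to 8.61 to 12.35 over days 4 to 12, against 14.56 to 14.91 in growth. For leukocytes the sum was 5.61 to 6.09 on all arrays, with Ptprc, Cd68 and Spi1 dim in every group. Csf1r was at 4.87 to 5.02 on every array. Tyrobp was at 2.08 to 2.15 up to day 10 and at 3.33 and 4.0 at day 12. For platelets the sum was 4.77 to 5.54, with Pf4 above 4 at day 12 only.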

How the data were processed

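RNA of 16 cultures was hybridised to 1 array each. The authors deposited normalized log2 values made with GCRMA, per the submitters' processing notes; versions and parameters are not given in the sources used here. The base of the logarithm was read from the range of 0.863 to 15.9. GCRMA corrects background by probe sequence and sets array distributions equal, so a shift of total RNA cannot be seen.

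Of 45101 probe sets, 34945 named a single gene (18193 genes). Probe sets that did not exceed 4 on 2 or more arrays were taken as dim and dropped, and the probe set with the highest mean was kept per gene, leaving 10802 genes. Probe sets naming several genes were not used. All 16 arrays entered 1 limma 3.58.1 fit (R 4.3.3) with a mean per group, empirical Bayes and Benjamini-Hochberg adjustment over all tested genes, for each DMSO day over growth, successive days, and an F test over the 5 differences from growth. The F test was called at an adjusted p under 0.05 and a range of group means, growth included, of at least 1. The procedure was tested on simulated data. Members were matched by symbol; the family, gene lists, marker lists and tests were chosen with earlier results of these data known. All members are named. Of each list of related genes, the 4 called genes with the largest day 12 difference are named, with Fn1, Vtn, Nid1, Dag1 and Ilk whatever their values; Ptk2 is not analysed here. Cdh1, Icam1, Icam2, Madcam1 and Vcam1 were named after their values were seen. Symbols are those of the array annotation. The labels do not say whether replicate letters mark a shared culture, and the main fit did not use them. The pairing check covered 35 pairs of arrays with the same replicate letter. Correlations of deviations from the group means were -0.207 to 0.324 (median 0.0632), over 0.1 in 13. Pairs with different letters were not compared, so the check cannot decide whether letters pair cultures. Where replicates are few, the number of arrays limits the precision.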

Additional observations from a re-analysis of the deposited data

How the results depend on the processing

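The counts of members called over growth at days 6 to 12 and in the F test stayed within 1.5 times their values under all 14 alternatives and when any single array was left out. The day 4 count, 7, was 4 at an adjusted p under 0.01 and between 4 and 7 with 1 array left out. Of 153 differences, 58 were called, 41 of them under every omission and 13 alternatives, and 0 called ones reversed. The alternative with each probe set on its own was not applied to these single differences. The steps between days rest on few calls. From day 4 to day 6 the count, 2, was 1 without the dim filter, in a fit of only the groups compared and at an adjusted p under 0.01. It was 4 with array weights, with probe sets averaged per gene and with each probe set on its own (an alternative chosen after seeing the data), and 0 to 3 with 1 array left out. From day 6 to day 8 the count, 0, was 2 with array weights and 0 to 1 with 1 array left out. From day 8 to day 10 the count, 2, was 1 without the dim filter, with the replicate block, in a fit of only the groups compared and at an adjusted p under 0.01, and 1 to 3 with 1 array left out. The replicate block took the call of Itgb8 (adjusted p = 0.0511), and whether letters mark shared cultures is not known. From day 10 to day 12 the count, 1, was 0 without the dim filter, with the filter at 6, in a fit of only the groups compared and at an adjusted p under 0.01, 2 with each probe set on its own, and 0 to 2 with 1 array left out. Among single members, the day 4 call of Itga8 was lost with values under 4 set to 4 (1.45, adjusted p = 0.0632) and with the mean of its probe sets (1.30, adjusted p = 0.0805). The mean of probe sets also put Itgav under the minimum size at day 8 (0.86) and day 10 (0.97) and Lamc1 at day 12 (0.36), and Itgb1 at day 4 (0.94). Why these calls moved was not tested. Dim signals limit Lama2, Itga8 and Itgb8 to lower bounds, and groups of 2 or 3 arrays limit the precision of all values.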
